A study of Mus musculus with 8 samples.

Results

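The genes of cholesterol and fatty acid synthesis were examined in BMEL cells, a bipotential line of progenitors from mouse embryonic liver. The list held 43 genes, of which 18 encode enzymes of the sterol arm, 15 belong to the fatty acid arm and 10 are regulators or carry sterols. They were chosen by name, with earlier results of these data known. The RefSeq accession of each probe gave its gene, and such accessions named 20660 genes on the array. All 43 had at least 1 probe, and 40 were tested because a probe was well above background on at least 2 arrays. The 3 not tested were Scd1, Thrsp and Mylip.

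The study applied different media to this 1 cell line, with no genetic change named in the labels. RNA was hybridised to 8 one-colour Agilent SurePrint G3 mouse arrays on 1 slide, as 2 arrays of cells in DIFF media, 3 in CM and 3 in NoRX media. The series title speaks of medium conditioned by human amniotic epithelial cells, but CM, DIFF and NoRX are left as abbreviations, and neither their composition nor the time of exposure is stated. The labels do not say whether arrays of a group came from separate cultures, so p-values measure the spread between these arrays, which may be technical. The titles number the DIFF arrays 1 and 2, whereas the source label gives both the number 1, so every p-value with DIFF assumes that they are 2 samples.

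Cells make cholesterol from acetyl-CoA by way of mevalonate, farnesyl diphosphate, squalene and lanosterol, and fatty acids from the same acetyl-CoA by way of malonyl-CoA. Both routes are transcribed under the SREBP factors, membrane-bound precursors that SCAP escorts to the Golgi for cleavage when sterols are scarce and that the INSIG proteins hold back in the endoplasmic reticulum when sterols are plentiful. SREBP-2, from Srebf2, is best known for sterol genes and SREBP-1c, from Srebf1, for fatty acid genes, while the oxysterol receptors LXRα and LXRβ, from Nr1h3 and Nr1h2, drive sterol export, Srebf1 and Mylip. Liver is a main site of both syntheses.

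The labelled cell type was checked against its markers. Of 15 markers of liver progenitors and epithelium, 13 were well above background on both DIFF arrays, and all 15 on all CM and NoRX arrays; Spp1 and Prom1 were so on 1 of the 2 DIFF arrays. Relative to NoRX, 4 of the 15 rose and 10 fell in DIFF, and 6 rose and 8 fell in CM. Albumin, Alb, differed most, by log2 differences of 8.88 in DIFF and 3.28 in CM, while Prom1 (-2.97), Spp1 (-2.16), Epcam (-1.83) and Sox9 (-1.63) fell in DIFF and Krt7 (-0.99), Foxa2 (-0.89) and Hnf4a (-0.73) fell in CM. The linear levels of the 15 markers relative to the 75th percentile of each array summed to 1488 to 1820 in DIFF, 1530.0 to 1638 in CM and 2023 to 2144 in NoRX. These sums came mostly from Krt18, Krt19 and Krt8, with mean log2 levels of 9.68, 9.22 and 8.73 in NoRX, and say little of the other markers. Of 6 fibroblast and stellate markers, 3 (Lrat, Pdgfrb and Reln) were not well above background on any array, and the 6 summed to 0.259 to 0.351 in DIFF, 1.42 to 1.44 in CM and 0.600 to 0.626 in NoRX. Des rose in CM (log2 difference 1.93) and fell in DIFF (-0.59), and Col1a1 fell in CM (-0.67) and was at least 5.51-fold lower in DIFF. Of 4 leukocyte markers, Cd68 had no matched probe and Adgre1 was not well above background on any array. Csf1r was the 1 tested, higher in CM (0.56) and lower in DIFF (-0.81) than in NoRX. The list summed to 1.29 to 1.77 in DIFF, 3.85 to 3.94 in CM and 2.32 to 2.84 in NoRX, mostly from Csf1r. The 4 endothelial markers summed to 9.49 to 11.04 in DIFF, 12.4 to 13.5 in CM and 11.9 to 14.4 in NoRX, mostly from Kdr. Cdh5 was higher in CM (1.85) and Kdr lower in DIFF (-0.32). No adipocyte marker of 6 was well above background on all arrays of any group. The part of these markers in the results below was not tested. The second DIFF array stood apart: 1159 of its spots had an uneven local background, against 3 to 90 on the other arrays, and 46.4% of its spots were well above background, against 50.8% to 53.5%. Across all genes it read lower than the first DIFF array by a median log2 difference of -0.23, and every tested gene of the sterol arm (18) and the fatty acid arm (13) was lower on it. The DIFF arrays correlated at r = 0.960, against 0.991 to 0.993 among CM arrays and 0.993 to 0.994 among NoRX arrays, over the genes tested. On the slide, both DIFF arrays and CM replicates 2 and 3 shared a row, and CM replicate 1 shared the other with the NoRX arrays.

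Levels below are log2 processed signals relative to the 75th percentile of each array, and differences are between group means on that log2 scale with the standard error (SE) of the fit. A gene was called changed at an adjusted p below 0.05 in limma, over 14044 genes. Where 1 DIFF array is left out, the other is assumed to vary like the CM and NoRX arrays, which then give all of the spread. In bulk RNA, fewer cells with a transcript and less of it per cell cannot be told apart. In CM, more members were higher than lower relative to NoRX: of the 40 tested members, 22 rose, 6 fell and 12 missed the threshold, and their median log2 difference was 0.34, against 0.01 over all genes tested. Of all genes, 54.4% were called in this comparison, 27.7% higher and 26.6% lower. In DIFF, 8 members rose against NoRX, 10 fell and 22 missed the threshold, at a median of -0.14 against -0.09 over all genes. There 44.2% of all genes were called, 15.4% higher and 28.8% lower. Set against CM, DIFF had 9 members higher, 22 lower and 9 uncalled, at a median of -0.33 against -0.10 over all genes, of which 60.7% were called, 25.1% higher and 35.6% lower. Called members made up 70% of those tested in CM against NoRX, 45% in DIFF against NoRX and 77.5% in DIFF against CM, so that for DIFF against NoRX the share was near that of all genes and says nothing particular about the members. Groups did not overlap, with the first medium higher, in 26 members for CM over NoRX (36.2% of all genes), 8 for DIFF over NoRX (21.6%) and 10 for DIFF over CM (28.5%). They did not overlap with the first medium lower in 8 members (34.9% of all genes), 15 (37.4%) and 23 (41.2%) in the same order. The comparisons share arrays, since both media were set against the same NoRX arrays and CM enters the last one too, so their values are given side by side.

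**Figure D1:**
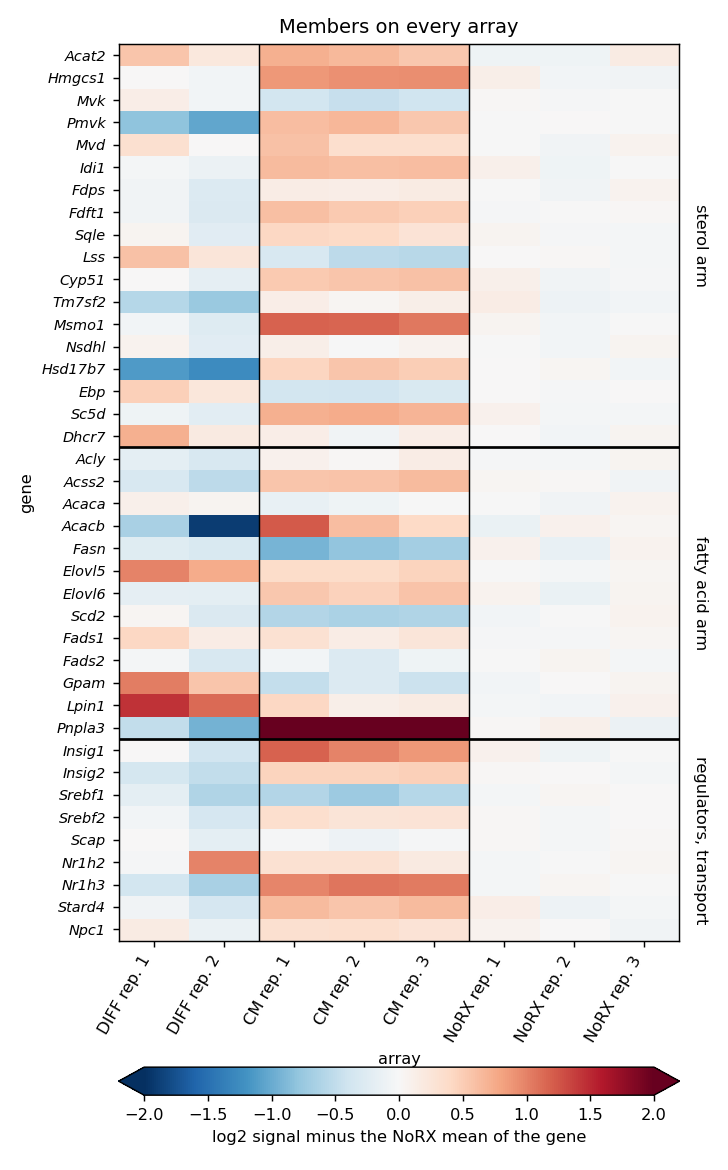
Colour shows the log2 signal of each of the 40 tested members on each array minus the mean of the 3 NoRX arrays of that gene, with genes in rows by role and arrays in columns. CM columns are mostly red in the sterol arm and mixed in the fatty acid arm; the 2 DIFF columns differ most for Acacb and Nr1h2, and with normexp background correction the DIFF mean of Acacb and Pnpla3 lay above that of NoRX.

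The sterol arm was mostly higher in CM than in NoRX. Of its 18 enzymes 11 rose, 3 fell and 4 were not called, and the median log2 difference was 0.46. In DIFF against NoRX 7 were called, with 4 higher, 3 lower and 11 that did not pass (median -0.08, against -0.09 over all genes). That share, 38.9%, was near the 44.2% of all genes and says nothing particular about the arm. Against CM, DIFF had 4 higher, 11 lower and 3 that did not pass (median -0.54). Of the 7 steps from acetyl-CoA to farnesyl diphosphate, 5 rose and 1 fell in CM, and of the 8 steps after lanosterol 4 rose and 1 fell. These called shares were 85.7% and 62.5%, against 54.4% of all genes. The second was near that of all genes and says nothing particular about the later steps.

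Hmgcs1 encodes the cytosolic synthase that makes HMG-CoA. Its log2 levels were 4.88 and 4.81 in DIFF, 5.74, 5.79 and 5.81 in CM, and 4.99, 4.81 and 4.81 in NoRX. All CM arrays lay above all others, while DIFF and NoRX overlapped. The log2 difference was 0.91 ± 0.07 (SE) for CM over NoRX, a 1.88-fold rise with adjusted p = 1.55e-06. DIFF was 1.91-fold lower than CM (adjusted p = 1.38e-06) and differed from NoRX by -0.03 ± 0.07 (adjusted p = 0.807).

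Msmo1 encodes a methylsterol monooxygenase of the sterol demethylation steps, downstream of Cyp51, and it had the largest rise of the arm in CM. On the arrays the log2 levels of Msmo1 were 6.31 and 6.11 in DIFF, 7.54, 7.52 and 7.41 in CM, and 6.42, 6.30 and 6.36 in NoRX. CM arrays formed a group of their own above overlapping DIFF and NoRX arrays. CM was 2.19-fold above NoRX (log2 difference 1.13 ± 0.07, adjusted p = 5.6e-07) and DIFF 2.43-fold below CM (adjusted p = 2.04e-07). Sc5d, a sterol desaturase near the end of the route, had log2 levels of 3.06 and 2.95 in DIFF, 3.87, 3.90 and 3.83 in CM, and 3.24, 3.11 and 3.11 in NoRX. It followed the same order, CM above all other arrays, with DIFF just below NoRX. Its rise in CM was 1.64-fold (adjusted p = 5.93e-06), and the DIFF minus NoRX log2 difference was -0.15 ± 0.07 (adjusted p = 0.115).

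Acat2, the cytosolic thiolase that joins the first acetyl-CoA units, had log2 levels of -0.74 and -1.08 in DIFF, -0.59, -0.65 and -0.76 in CM, and -1.39, -1.37 and -1.13 in NoRX. Both media lay above NoRX, and DIFF overlapped with CM. It rose 1.54-fold in CM (adjusted p = 0.00104) and 1.30-fold in DIFF (adjusted p = 0.0353). The DIFF call was lost without the first DIFF array, at a log2 difference of 0.21, and with slide row as a block (0.50, adjusted p = 0.167).

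A pair of enzymes rose in CM and fell in DIFF against the same NoRX arrays. Pmvk, phosphomevalonate kinase, had log2 levels of 4.06 and 3.81 in DIFF, 5.48, 5.52 and 5.39 in CM, and 4.85, 4.87 and 4.86 in NoRX, so that the groups did not overlap. It was 1.90-fold lower in DIFF (log2 difference -0.92 ± 0.08, adjusted p = 4.92e-06) and 1.52-fold higher in CM (adjusted p = 4.57e-05) than in NoRX. Hsd17b7, the keto-sterol reductase of the demethylation steps, had log2 levels of 1.92 and 1.79 in DIFF, 3.47, 3.61 and 3.53 in CM, and 3.06, 3.08 and 2.99 in NoRX. Here too the groups were separate, with DIFF lowest and CM highest. Hsd17b7 was 2.28-fold lower in DIFF (adjusted p = 3.14e-07) and 1.41-fold higher in CM (adjusted p = 9.58e-05) than in NoRX. The gap between DIFF and CM was a log2 difference of -1.68 ± 0.07, the widest of the sterol arm. Another probe of each gene gave log2 differences of -0.96 and 0.58 for Pmvk and -1.14 and 0.51 for Hsd17b7, for DIFF and CM over NoRX.

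Tm7sf2, a sterol reductase, was lower in DIFF than in either of the other media. On the arrays the log2 levels of Tm7sf2 were 4.87 and 4.70 in DIFF, 5.57, 5.48 and 5.56 in CM, and 5.58, 5.34 and 5.38 in NoRX, with CM and NoRX overlapping. DIFF was 1.57-fold below NoRX (adjusted p = 0.000135). Dhcr7, the reductase of the last step to cholesterol, had log2 levels of 0.20 and -0.32 in DIFF, -0.36, -0.57 and -0.37 in CM, and -0.50, -0.55 and -0.44 in NoRX. The DIFF arrays were highest but far apart, and CM overlapped with NoRX. DIFF was called 1.36-fold above NoRX (adjusted p = 0.0261), but without the first DIFF array the log2 difference was 0.18 in place of 0.44 and did not pass (adjusted p = 0.151), nor did it with slide row as a block (0.55, adjusted p = 0.151). Without the second DIFF array it was 0.70, and the CM minus NoRX difference was 0.07 ± 0.13 (adjusted p = 0.684).

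The 3 enzymes that fell in CM were Mvk, Lss and Ebp, from the early, middle and late route. Mvk, mevalonate kinase, averaged a log2 level of 3.92 ± 0.14 in DIFF, 3.48 ± 0.05 in CM and 3.88 ± 0.03 in NoRX (SD, n = 2, 3 and 3). It fell 1.32-fold in CM (adjusted p = 0.000444), while DIFF overlapped with NoRX. Lss, lanosterol synthase, averaged 2.20 ± 0.24 in DIFF, 1.32 ± 0.12 in CM and 1.79 ± 0.03 in NoRX. Ebp, the sterol isomerase, averaged 5.69 ± 0.17 in DIFF, 4.99 ± 0.04 in CM and 5.34 ± 0.01 in NoRX. Both had their lowest level in CM and their highest in DIFF, with no overlap. Lss was 1.33-fold higher in DIFF (adjusted p = 0.00882) and 1.38-fold lower in CM (adjusted p = 0.00166) than in NoRX, and Ebp 1.27-fold in each direction (adjusted p = 0.00423 and 0.00153). With slide row as a block, Lss in CM was at -0.33 (adjusted p = 0.0698) and Ebp in DIFF at 0.32 (adjusted p = 0.163), Lss in DIFF was at 0.62 (adjusted p = 0.0249), and without the first DIFF array the DIFF log2 differences were 0.24 for Lss and 0.22 for Ebp.

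The remaining 7 enzymes were Mvd, Idi1 and Fdps, which act up to farnesyl diphosphate, Fdft1 and Sqle, which form and oxidise squalene, and Cyp51 and Nsdhl, which act after lanosterol. In CM, Idi1 (0.62), Cyp51 (0.55), Fdft1 (0.53), Mvd (0.42) and Sqle (0.36) rose, as log2 differences from NoRX with adjusted p between 1.94e-05 and 0.0042. Fdps, at 0.15 ± 0.07 (adjusted p = 0.0906), and Nsdhl, at 0.06 ± 0.08 (adjusted p = 0.564), did not pass. None of the 7 was called in DIFF against NoRX, where their log2 differences ran from -0.18 for Fdft1 to 0.16 for Mvd. Against CM, DIFF was lower for Fdft1 (-0.71), Idi1 (-0.70), Cyp51 (-0.64), Sqle (-0.45) and Fdps (-0.31), while Mvd (-0.26) and Nsdhl (-0.14) did not pass. Averaged over its probes, Fdft1 had log2 differences of 1.12 for CM minus NoRX (adjusted p = 0.00943) and -1.41 for DIFF minus CM (adjusted p = 0.00432). Its second probe, however, was well above background on only 2 arrays. That probe had log2 levels of -5.68, -3.62 and -2.61 in CM and -5.45, -5.78 and -5.83 in NoRX, so the averaged values rest on dim signals. Another Nsdhl probe gave the opposite sign in CM, a log2 difference of -0.13.

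**Figure D2:**
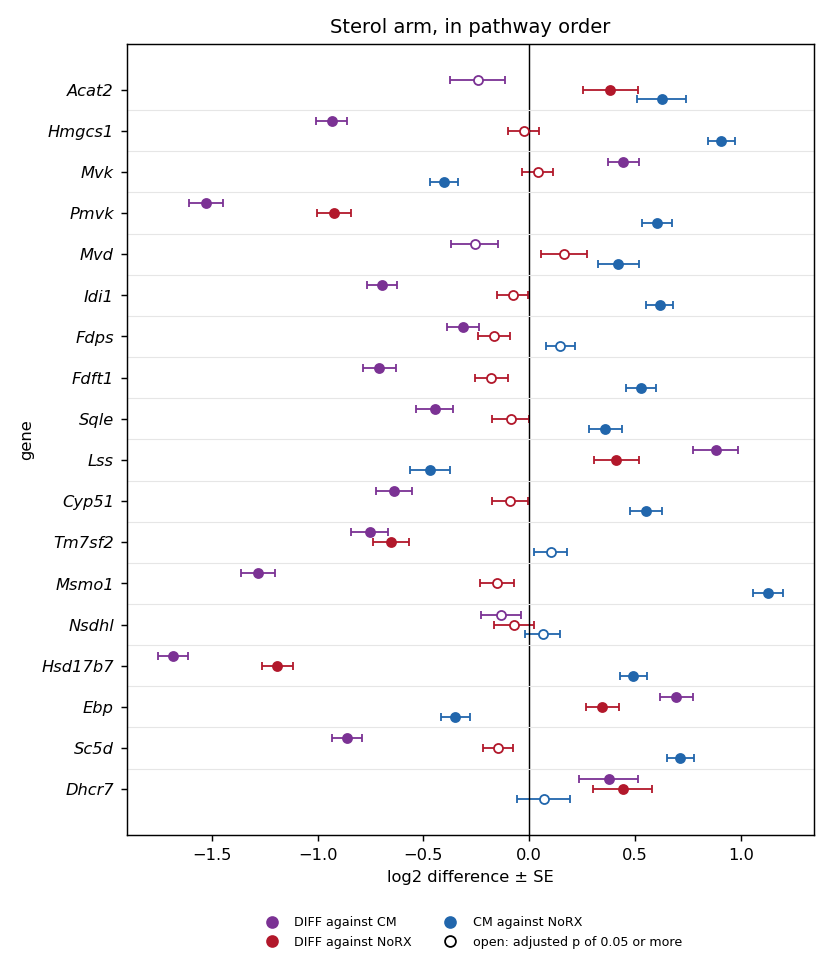
Points are log2 differences between group means for each enzyme of the sterol arm, in pathway order from top to bottom, with bars of 1 SE, and open points have an adjusted p of 0.05 or more. Most CM minus NoRX points lie right of 0 and most DIFF minus CM points left of it, with Mvk, Lss and Ebp the other way round.

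The sequence upstream of these genes is shown for 6 genes chosen by direction in CM: Hmgcs1, Msmo1 and Insig1, the first regulator described below, which rose, and Mvk, Lss and Ebp, which fell. Each window is the 250 bases before the RefSeq start in GRCm38.p6, read 5′ to 3′ along the gene, and capitals mark TCACNCCAC, CCAAT or GGGCGG on either strand. The first is a form of the sterol regulatory element, and the other pair are boxes known to bind NF-Y and Sp1, partners of SREBP. No match of 1 motif overlapped a match of another in these windows.
Hmgcs1 (chr13:119690101-119690350, + strand): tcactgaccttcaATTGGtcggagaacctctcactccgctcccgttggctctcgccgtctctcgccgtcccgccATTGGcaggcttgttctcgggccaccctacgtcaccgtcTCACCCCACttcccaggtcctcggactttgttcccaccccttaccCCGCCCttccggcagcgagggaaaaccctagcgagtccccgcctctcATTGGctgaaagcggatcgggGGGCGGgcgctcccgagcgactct
Msmo1 (chr8:64733579-64733828, - strand): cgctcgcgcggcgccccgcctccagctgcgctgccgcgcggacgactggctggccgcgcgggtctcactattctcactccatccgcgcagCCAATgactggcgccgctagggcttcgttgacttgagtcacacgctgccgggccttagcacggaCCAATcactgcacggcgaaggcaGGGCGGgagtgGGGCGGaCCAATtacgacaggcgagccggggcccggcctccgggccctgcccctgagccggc
Insig1 (chr5:28071162-28071411, + strand): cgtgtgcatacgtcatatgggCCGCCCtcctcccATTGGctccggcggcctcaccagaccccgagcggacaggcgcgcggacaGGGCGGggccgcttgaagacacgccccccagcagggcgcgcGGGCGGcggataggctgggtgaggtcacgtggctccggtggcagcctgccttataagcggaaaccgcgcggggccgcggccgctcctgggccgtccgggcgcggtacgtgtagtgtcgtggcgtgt
Mvk (chr5:114444019-114444268, + strand): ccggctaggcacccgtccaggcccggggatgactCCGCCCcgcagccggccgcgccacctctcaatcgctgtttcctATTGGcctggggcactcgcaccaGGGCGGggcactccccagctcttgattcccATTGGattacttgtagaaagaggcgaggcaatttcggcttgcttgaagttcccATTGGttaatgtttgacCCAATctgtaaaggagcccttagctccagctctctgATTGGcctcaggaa
Lss (chr10:76531355-76531604, + strand): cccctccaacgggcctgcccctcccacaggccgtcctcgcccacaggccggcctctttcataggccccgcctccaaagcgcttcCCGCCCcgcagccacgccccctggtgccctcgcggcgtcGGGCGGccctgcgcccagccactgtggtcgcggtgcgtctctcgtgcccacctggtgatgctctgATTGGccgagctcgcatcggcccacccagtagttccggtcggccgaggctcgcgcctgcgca
Ebp (chrX:8193513-8193762, - strand): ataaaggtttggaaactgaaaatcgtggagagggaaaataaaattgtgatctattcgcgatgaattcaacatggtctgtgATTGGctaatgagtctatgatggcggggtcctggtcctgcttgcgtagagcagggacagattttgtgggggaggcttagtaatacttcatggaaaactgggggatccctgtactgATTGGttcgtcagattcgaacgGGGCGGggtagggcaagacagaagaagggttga

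Hmgcs1 alone held TCACNCCAC, 137 bases before its start. CCAAT and GGGCGG stood in all 6 windows, in those of genes that rose and of genes that fell. Promoter windows, with 50 bases after the start added, were at hand for 35 of the 43 members. TCACNCCAC was in 1 of 15 genes of the sterol arm, 0 of 12 of the fatty acid arm and 0 of 8 regulators, against 1.44% of all genes with a window. CCAAT was in 93.3% of the sterol arm and 66.7% of the fatty acid arm, against 41.1% of all genes. GGGCGG was in 93.3% and 41.7%, against 38.2% of all genes and 63.2% of those tested here. These matches describe letters and not binding.

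The fatty acid arm was mixed. In CM against NoRX, 5 of its 13 tested genes rose, 2 fell and 6 did not pass (median log2 difference 0.23). In DIFF against NoRX 4 rose, 4 fell and 5 did not pass (median -0.18), and against CM, DIFF had 5 higher, 5 lower and 3 that did not pass (median 0.05). The called shares were 53.8% for CM and 61.5% for DIFF, both against NoRX, and 76.9% between DIFF and CM, of which the first was near the 54.4% of all genes. In the sterol arm they were 77.8%, 38.9% and 83.3%, against 54.4%, 44.2% and 60.7% of all genes in the same order. Scd1 and Thrsp had no test.

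Among the enzymes that supply and join carbon, Acss2, which makes acetyl-CoA from acetate, had log2 levels of 2.26 and 2.05 in DIFF, 3.13, 3.14 and 3.20 in CM, and 2.61, 2.60 and 2.50 in NoRX. The groups were separate, CM highest and DIFF lowest. Acss2 was 1.34-fold lower in DIFF (adjusted p = 0.00138) and in CM higher by a log2 difference of 0.58 ± 0.07 (adjusted p = 5.23e-05) than in NoRX. Acly, which makes acetyl-CoA from citrate, differed from NoRX by -0.26 ± 0.07 in DIFF (adjusted p = 0.014) and 0.09 ± 0.06 in CM (adjusted p = 0.288) on the log2 scale, and without NoRX replicate 3 its DIFF difference was -0.23 and did not pass. Nor did it pass with slide row as a block (-0.26, adjusted p = 0.235).

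Acaca encodes the cytosolic acetyl-CoA carboxylase that commits carbon to fatty acids. On the arrays the log2 levels of Acaca were 3.38 and 3.33 in DIFF, 3.13, 3.18 and 3.26 in CM, and 3.27, 3.21 and 3.34 in NoRX. It was not called in any comparison, with adjusted p = 0.386 for DIFF and 0.301 for CM against NoRX and 0.068 for DIFF against CM. Acacb, the mitochondrial carboxylase known for restraining fatty acid oxidation, had log2 levels of -4.15 and -5.40 in DIFF, -2.27, -2.89 and -3.10 in CM, and -3.64, -3.41 and -3.46 in NoRX. Its probe was dim, and it was well above background on only 1 of the 2 DIFF arrays. DIFF was below NoRX by a log2 difference of -1.28 ± 0.37 (adjusted p = 0.0162), which was -0.65 without the second DIFF array (adjusted p = 0.112) 0.08 with normexp background correction (adjusted p = 0.79) and -0.56 with slide row as a block (adjusted p = 0.559). DIFF against CM was -2.03 ± 0.37 (adjusted p = 0.00069), and -0.33 with normexp (adjusted p = 0.22). CM minus NoRX was 0.75 ± 0.33 (adjusted p = 0.0764).

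Fasn, the synthase that builds palmitate, was lowest in CM. Its log2 levels were -0.71 and -0.77 in DIFF, -1.40, -1.25 and -1.15 in CM, and -0.38, -0.62 and -0.40 in NoRX. All CM arrays lay below all others, and both DIFF arrays below all NoRX arrays. Fasn fell 1.74-fold in CM against NoRX (log2 difference -0.80 ± 0.10, adjusted p = 7.11e-05), and DIFF was 1.44-fold above CM (adjusted p = 0.00202). DIFF minus NoRX was -0.27 ± 0.11 (adjusted p = 0.0723).

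Desaturases and elongases were measured as pairs of relatives. Scd2, a stearoyl-CoA desaturase, had log2 levels of 8.81 and 8.49 in DIFF, 8.19, 8.14 and 8.17 in CM, and 8.72, 8.77 and 8.84 in NoRX. CM arrays were the lowest, and DIFF overlapped with NoRX. Scd2 fell 1.52-fold in CM (adjusted p = 0.000102). Scd1, the main isoform of adult liver, was well above background on 1 of the 3 CM arrays and on no DIFF or NoRX array, with measured log2 levels of -7.39 and -6.53 in DIFF, -5.72, -5.49 and -4.98 in CM, and -6.57, -7.17 and -6.99 in NoRX. No fold is given for it.

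Elovl5, an elongase of polyunsaturated acyl chains, rose in both media. Its log2 levels were 4.08 and 3.83 in DIFF, 3.46, 3.46 and 3.53 in CM, and 3.08, 3.06 and 3.13 in NoRX, with no overlap between groups. DIFF was 1.82-fold (adjusted p = 9.24e-06) and CM 1.31-fold (adjusted p = 0.000953) above NoRX. Elovl6, which extends palmitate, had log2 levels of 0.96 and 0.94 in DIFF, 1.68, 1.60 and 1.71 in CM, and 1.20, 1.01 and 1.20 in NoRX. CM stood above the rest, and DIFF just below NoRX. Elovl6 rose 1.44-fold in CM (adjusted p = 0.000126), and DIFF minus NoRX was a log2 difference of -0.19 ± 0.08 (adjusted p = 0.0804). Without NoRX replicate 2 that difference was -0.25 and passed (adjusted p = 0.0437).

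Fads1 and Fads2 encode desaturases of polyunsaturated chains. Fads1 had log2 levels of 2.73 and 2.46 in DIFF, 2.61, 2.46 and 2.56 in CM, and 2.30, 2.29 and 2.36 in NoRX. Both media lay above NoRX by small differences, 0.28 ± 0.09 in DIFF (adjusted p = 0.024) and 0.23 ± 0.08 in CM (adjusted p = 0.0283). The CM call was lost without any 1 NoRX array, CM replicate 1 or CM replicate 3, at log2 differences of 0.20 to 0.25. The DIFF call was lost without NoRX replicate 1 or 2 (0.27 each) or the first DIFF array (0.15). With slide row as a block neither passed, at 0.38 in DIFF (adjusted p = 0.122) and 0.30 in CM (adjusted p = 0.0743). Fads2 had log2 levels of -0.88 and -1.17 in DIFF, -0.89, -1.12 and -0.93 in CM, and -0.84, -0.80 and -0.89 in NoRX. It was not called in any comparison, at adjusted p = 0.23, 0.301 and 0.749 in the same order as for Acaca.

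Lpin1 and Gpam, which act in glycerolipid assembly, were higher in DIFF, whereas 10 of the 16 tested genes of the wider list of esterification, droplets and triglyceride synthesis, given below, fell there. Lpin1, a phosphatidate phosphatase, had log2 levels of 1.20 and 0.89 in DIFF, 0.16, -0.12 and -0.08 in CM, and -0.28, -0.30 and -0.16 in NoRX. DIFF lay above all other arrays, and CM above NoRX without overlap. Lpin1 was 2.45-fold higher in DIFF than in NoRX (log2 difference 1.30 ± 0.12, adjusted p = 7.76e-06), and CM minus NoRX was 0.23 ± 0.11 (adjusted p = 0.0848). Gpam, the mitochondrial acyltransferase that begins triglyceride synthesis, had log2 levels of -1.93 and -2.39 in DIFF, -3.43, -3.22 and -3.38 in CM, and -3.01, -2.94 and -2.89 in NoRX. The groups were separate, DIFF highest and CM lowest. Gpam was 1.72-fold higher in DIFF than in NoRX (adjusted p = 0.00583) and 2.27-fold higher than in CM (adjusted p = 0.000259), and CM minus NoRX was a log2 difference of -0.40 ± 0.17 (adjusted p = 0.0659). The DIFF minus NoRX call of Gpam was lost with slide row as a block (log2 difference 0.66, adjusted p = 0.205) and with array weights (0.79, adjusted p = 0.102). The spot on CM replicate 3 had an uneven local background.

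Pnpla3, a protein of lipid droplets and a known SREBP-1c target, had the largest difference of all members in CM. Its log2 levels were -4.31 and -4.76 in DIFF, -1.73, -1.63 and -1.80 in CM, and -3.80, -3.72 and -3.95 in NoRX. The groups were separate, and the probe was well above background on only 1 of the 2 DIFF arrays. CM was 4.29-fold above NoRX (log2 difference 2.10 ± 0.18, adjusted p = 4.99e-06), with a log2 difference of 1.15 under normexp background correction. DIFF was below CM by -2.82 ± 0.20 (adjusted p = 6.74e-07), and by -1.0 under normexp. DIFF minus NoRX was -0.72 ± 0.20 (adjusted p = 0.0151), and 0.14 under normexp (adjusted p = 0.602). That call was also lost without the second DIFF array (-0.49) or NoRX replicate 2 (-0.67), and with slide row as a block (-0.73, adjusted p = 0.198). Another Pnpla3 probe, well above background on 3 arrays, measured a log2 difference of 1.06 for CM over NoRX. Thrsp, a lipogenic nuclear protein of liver, was not well above background on any array.

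**Figure D3:**
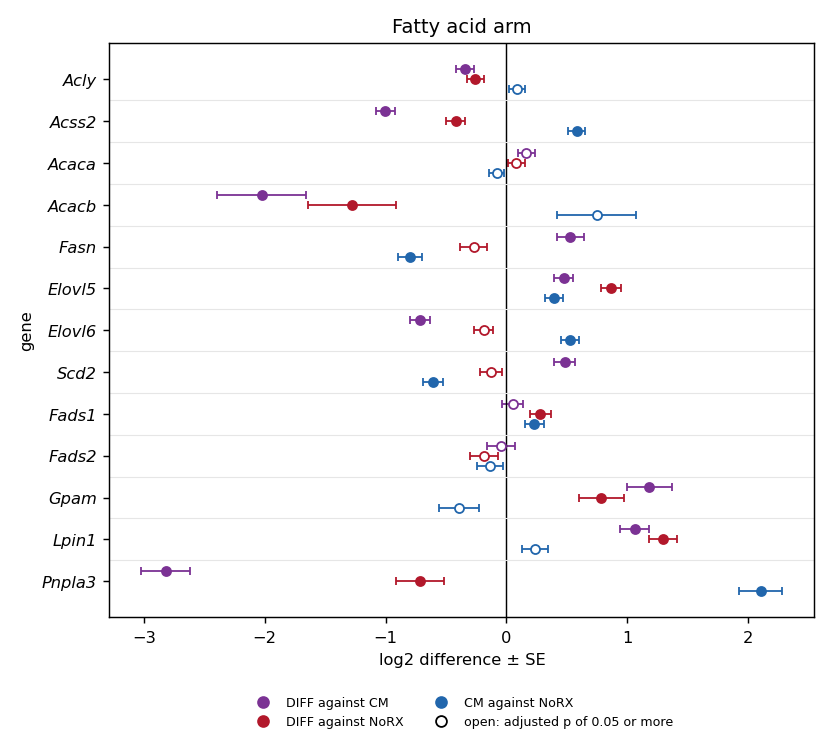
Points are log2 differences between group means for the 13 tested genes of the fatty acid arm, with bars of 1 SE, and open points have an adjusted p of 0.05 or more. Pnpla3 and Fasn mark the ends of the CM minus NoRX range, and under normexp background correction the DIFF minus NoRX points of Acacb and Pnpla3 move to the right of 0.

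Of the 9 tested regulators and transport genes, 6 rose in CM against NoRX, 1 fell and 2 did not pass (median log2 difference 0.31). In DIFF against NoRX 3 fell and 6 did not pass (median -0.19), and against CM 6 were lower in DIFF and 3 did not pass (median -0.48). The called shares were 77.8%, 33.3% and 66.7%, against 54.4%, 44.2% and 60.7% of all genes. The last was near that of all genes and says nothing particular about this group.

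Insig1, an anchor of the SREBP escort and itself a sterol-regulated SREBP target, had log2 levels of 0.30 and -0.08 in DIFF, 1.47, 1.28 and 1.16 in CM, and 0.39, 0.20 and 0.29 in NoRX. CM stood apart above overlapping DIFF and NoRX arrays. It rose 2.01-fold in CM (log2 difference 1.01 ± 0.11, adjusted p = 3.1e-05), and DIFF minus NoRX was -0.18 (adjusted p = 0.263). Insig2, the second anchor, had log2 levels of 3.66 and 3.52 in DIFF, 4.46, 4.45 and 4.49 in CM, and 4.05, 4.03 and 3.97 in NoRX. Its groups were separate, with DIFF lowest. Insig2 was 1.34-fold lower in DIFF (adjusted p = 0.000395) and 1.37-fold higher in CM (adjusted p = 9.18e-05) than in NoRX, and averaged over its probes the CM log2 difference was 0.29.

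The genes of the factors themselves moved in opposite directions in CM. Srebf1 had log2 levels of 0.66 and 0.27 in DIFF, 0.27, 0.14 and 0.29 in CM, and 0.82, 0.90 and 0.87 in NoRX. Both media lay below NoRX and overlapped with each other. It was 1.32-fold lower in DIFF (adjusted p = 0.0141) and 1.55-fold lower in CM (adjusted p = 0.000354), and without the second DIFF array the DIFF log2 difference was -0.20 and did not pass (adjusted p = 0.0555). With slide row as a block it was -0.34 (adjusted p = 0.276). Srebf2 had log2 levels of 2.00 and 1.73 in DIFF, 2.39, 2.31 and 2.34 in CM, and 2.09, 2.01 and 2.07 in NoRX. CM lay above the rest. Srebf2 rose 1.22-fold in CM (adjusted p = 0.0085), and its second probe read a log2 difference of 0.60. DIFF minus NoRX was -0.19 for Srebf2 (adjusted p = 0.0902). It was -0.33 without the first DIFF array, where the median over all genes was -0.22, and -0.06 without the second. Srebf1 transcripts for SREBP-1a and SREBP-1c were not separated here. Scap, the escort, was not called in any comparison, with log2 differences between -0.10 and -0.04.

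Nr1h3, the gene of LXRα, had log2 levels of 2.05 and 1.76 in DIFF, 3.39, 3.49 and 3.46 in CM, and 2.38, 2.45 and 2.42 in NoRX. Groups did not overlap. Nr1h3 was 1.42-fold lower in DIFF (adjusted p = 0.000748) and 2.04-fold higher in CM (adjusted p = 2.04e-06) than in NoRX, and its second probe gave log2 differences of -0.44 and 0.94. Nr1h2, the gene of LXRβ, had log2 levels of 5.86 and 6.87 in DIFF, 6.18, 6.18 and 6.06 in CM, and 5.84, 5.86 and 5.92 in NoRX. The high DIFF value came from a spot with an uneven local background on the second array. DIFF minus CM was 0.22 (adjusted p = 0.401) with that spot, and -0.29 without it (adjusted p = 0.0162). CM minus NoRX was 0.27 ± 0.19 (adjusted p = 0.269), and passed without that spot at the same difference (adjusted p = 0.00333).

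Stard4, which moves sterol between membranes, had log2 levels of 2.07 and 1.80 in DIFF, 2.77, 2.70 and 2.77 in CM, and 2.28, 2.04 and 2.10 in NoRX. CM was above all other arrays. It rose 1.53-fold in CM (adjusted p = 0.000178), and DIFF minus NoRX was a log2 difference of -0.20 (adjusted p = 0.116). Npc1, which releases cholesterol from lysosomes, rose 1.24-fold in CM (adjusted p = 0.0115), a call lost without NoRX replicate 3 (log2 difference 0.28, adjusted p = 0.0507) and with slide row as a block (0.32, adjusted p = 0.0919). Mylip, a ligase that degrades lipoprotein receptors and an LXR target, was not well above background on any array.

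**Figure D4:**
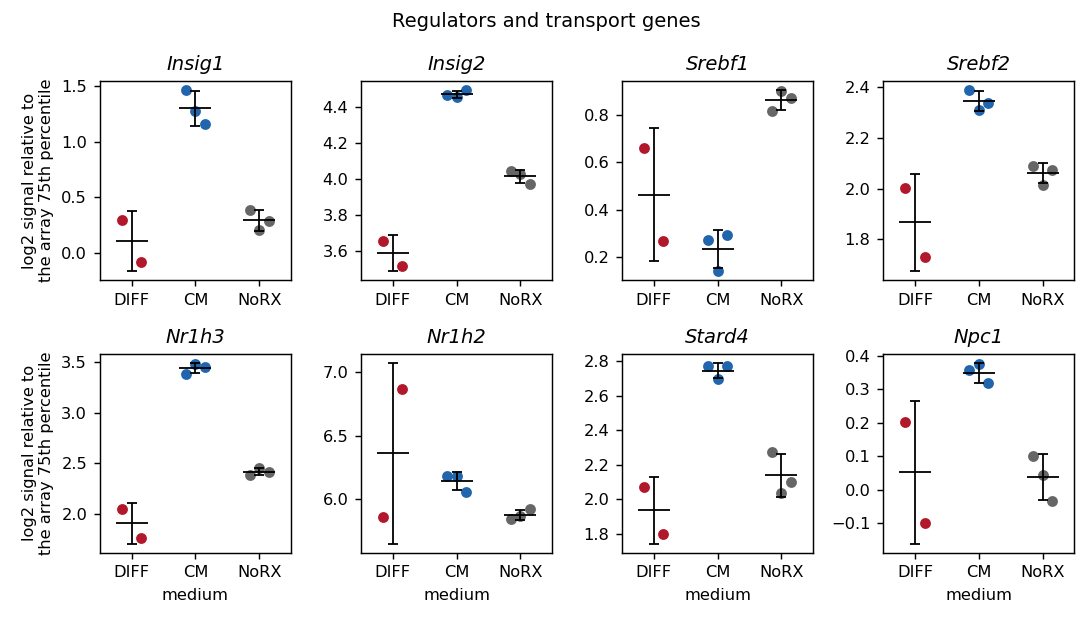
Points are log2 levels of 8 regulators and transport genes on each array relative to the 75th percentile of that array, by medium, with the group mean and bars of 1 SD. Srebf1 has its highest values in NoRX, the other genes except Nr1h2 have theirs in CM, and the upper DIFF point of Nr1h2 is the spot with uneven background.

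The arms were set side by side as the median over members of the log2 level minus the NoRX mean of each gene. On CM replicates 1, 2 and 3 the sterol medians were 0.48, 0.46 and 0.41 and the fatty acid medians 0.30, 0.12 and 0.17. On the DIFF arrays the sterol medians were 0.00 and -0.19 and the fatty acid medians -0.04 and -0.29. On the NoRX arrays all medians of both arms lay between -0.05 and 0.06. The sterol arm was thus above the fatty acid arm on all 3 CM arrays. As a difference of the arms' median log2 differences, CM minus NoRX gave 0.23, DIFF minus NoRX 0.10 and DIFF minus CM -0.59, for sterol minus fatty acid. The spread of the arm gap between arrays of a group was 0.06 (SD). Members are not replicates, so no test is given. The value depended on how the arm was summarised: by means in place of medians it was 0.12 for CM minus NoRX, -0.10 for DIFF minus NoRX and -0.22 for DIFF minus CM.

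**Figure D5:**
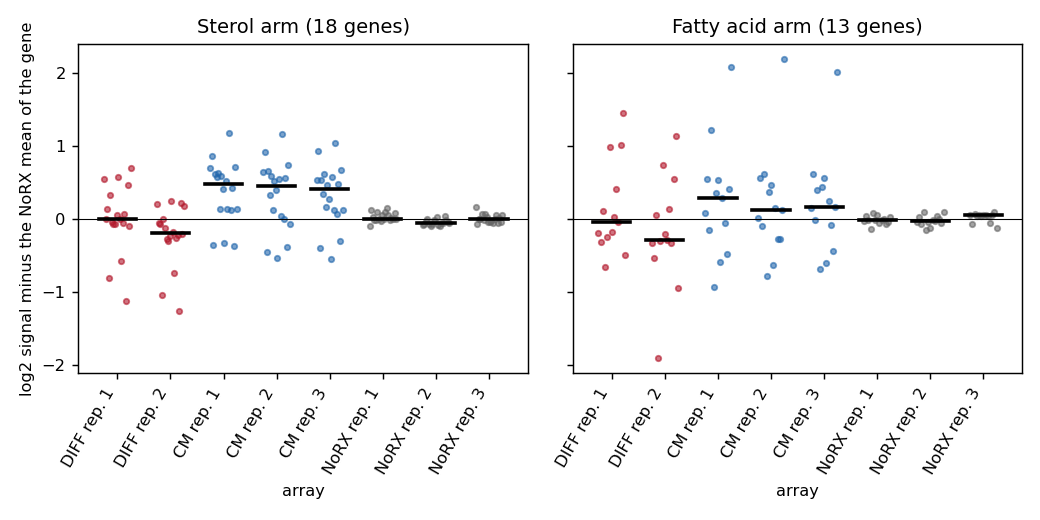
Each point is 1 gene on 1 array, as the log2 signal minus the mean of the NoRX arrays of that gene, for the sterol arm (left) and the fatty acid arm (right), and thick lines are medians. Sterol medians sit at 0.41 to 0.48 on the CM arrays, and the fatty acid arm there spreads further, with Pnpla3 at the top.

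Other genes of lipid metabolism were read from 6 lists. Of 10 genes of SREBP processing and INSIG turnover, 2 rose in CM against NoRX and 4 fell (median log2 difference -0.01), and in DIFF 5 fell and 5 did not pass (median -0.21). Against CM, DIFF had 2 of them higher and 4 lower. The called shares, 60% in CM and 50% in DIFF against NoRX and 60% between DIFF and CM, were near the 54.4%, 44.2% and 60.7% of all genes and say nothing particular about the list. Mbtps1 and Mbtps2, the Golgi proteases that cut SREBP, fell in CM by 0.45 and 0.65 (log2 differences, adjusted p = 0.000504 and 0.00413), while Faf2, a factor of protein removal from the endoplasmic reticulum, rose by 0.75. Rnf145, a ubiquitin ligase, was the largest change of the list in DIFF (-0.85 ± 0.07, adjusted p = 3.53e-06). Of 3 carbohydrate response factors, Mlxipl, the gene of ChREBP, fell in CM against NoRX (log2 difference -0.39), with the other two not called. In DIFF, Mlxip, the gene of MondoA, rose (0.49) and Mlxipl fell (-0.30), and Mlxip was also above CM (0.48).

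Among 10 genes of NADPH and acyl-CoA supply, 6 rose and 3 fell in CM (median log2 difference 0.27), and 2 rose and 7 fell in DIFF (median -0.50), both against NoRX. Against CM, DIFF again had 2 higher and 7 lower, so that 90% were called in each comparison. Malic enzyme, Me1, had a log2 difference of -1.15 ± 0.07 in DIFF (adjusted p = 4.75e-07), and G6pdx, which opens the pentose phosphate route, rose 2.15-fold (adjusted p = 1.18e-06). Acsl3, an acyl-CoA synthetase of lipid droplets, had log2 levels of 2.77 and 2.57 in DIFF, 3.59, 3.42 and 3.62 in CM, and 4.66, 4.75 and 4.55 in NoRX. It fell in both media, with log2 differences of -1.98 in DIFF and -1.11 in CM. Of 6 genes of isoprenoid branches 4 rose and 1 fell in CM (median 0.33), 3 rose and 1 fell in DIFF (median 0.25), and DIFF had 2 higher and 2 lower than CM. The called shares of this list were 83.3%, 66.7% and 66.7%, of which the last was near the 60.7% of all genes. Pdss1, for the ubiquinone tail, had a log2 difference of -1.29 ± 0.10 in CM (adjusted p = 2.09e-06).

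The list of esterification, droplets and triglyceride synthesis had 16 of 18 genes tested, of which 8 rose and 3 fell in CM (median log2 difference 0.24), and 2 rose and 10 fell in DIFF (median -0.33), against NoRX. Against CM, DIFF had 3 higher and 11 lower. The called shares were 68.8%, 75% and 87.5% in the same order. Cidea, a lipid droplet protein best known from fat cells, had log2 levels of -4.22 and -4.85 in DIFF, 0.59, 0.66 and 0.63 in CM, and -2.68, -2.88 and -2.82 in NoRX. It was the gene with the largest CM change of the list, 3.42 ± 0.16 (adjusted p = 7.54e-08), and was well above background on 1 of the 2 DIFF arrays. The 6 adipocyte markers summed to linear levels of 0.08 to 0.14 in DIFF, 0.07 to 0.14 in CM and 0.06 to 0.13 in NoRX, relative to the 75th percentile, and Adipoq, Plin1, Lep and Lpl were not well above background on any array. Of the other 2, which were tested, Cfd was higher in CM than in NoRX (log2 difference 2.13), at log2 levels of -5.31 to -4.50. Cfd was well above background on 1 CM array and no NoRX array, so its difference is a description. Retn was not called. Abhd5, which activates triglyceride lipase, rose in CM by 1.30 ± 0.06 (adjusted p = 8.73e-08), and Cideb, for lipoprotein loading in liver, by 1.12 ± 0.08 (adjusted p = 2.12e-06). In DIFF, Cidec, a droplet fusion protein, had a log2 difference of -1.92 ± 0.08 from NoRX (adjusted p = 2.26e-08). Mogat1 was not well above background in DIFF and passed the filter through the other media. As a description, it was at least 1.99-fold lower than in NoRX, a bound taken against the lowest signal well above background on each DIFF array.

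Of 15 genes of sterol and LXR output 9 were tested, and 5 rose and 3 fell in CM (median log2 difference 0.30), with 3 each way in DIFF (median -0.21), against NoRX. Between DIFF and CM, too, 3 were higher and 3 lower. The called shares were 88.9%, 66.7% and 66.7%, of which the last was near the 60.7% of all genes. The genes tested include Abcg1 and Abcg5, which passed the filter only through media in which they were high. Abcg1, a cholesterol exporter and LXR target, was well above background on the CM arrays alone and passed the filter through them. Its difference is therefore a description: CM was at least 2.97-fold above NoRX. Abcg5, a subunit of a sterol transporter of liver and gut, was well above background on no NoRX array and passed the filter through the other media. Its differences, too, are a description: at least 8.89-fold higher in DIFF and at least 1.40-fold higher in CM than in NoRX. Scarb1, the receptor for high density lipoprotein, rose in CM by 0.81 ± 0.07 (adjusted p = 4.6e-06), and Lipa, the lysosomal lipase, by 0.80 ± 0.06 (adjusted p = 2.97e-06). In DIFF the Lipa difference was -0.35 (adjusted p = 0.00243). Abca1, the exporter most often used to read LXR activity, was not well above background on enough arrays to be tested.

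With slide row as a block, 27 members were called for CM against NoRX, beside 5196 of all genes (7637 without the block). For DIFF against CM 29 members were called, beside 7715 of all genes (8527 without the block). Within the first row, which holds 1 CM array and the 3 NoRX arrays, 31 were called (25 higher, 6 lower). The spread there comes from the NoRX arrays alone and the lone CM array is assumed to vary like them, so that count rests on 1 CM array. Within the second row, of 2 DIFF and 2 CM arrays, 27 were called (8 higher, 19 lower), beside 6606 of all genes. DIFF and NoRX share no row, so their comparison under the block runs through CM. There 9 members were called, 3 higher and 6 lower, in place of 18, beside 3041 of all genes in place of 6204. The 9 calls lost were those of Acat2, Ebp, Dhcr7, Acly, Acacb, Fads1, Gpam, Pnpla3 and Srebf1. With array weights the same calls were lost but for Ebp, which kept its call, and Lss lost its call (adjusted p = 0.0979). Under normexp, Lss, Ebp, Acly and Fads1 did not pass for DIFF against NoRX (adjusted p between 0.0561 and 0.221), and for DIFF against CM array weights ended the calls of Dhcr7, Fasn and Npc1 (adjusted p between 0.099 and 0.154). With both DIFF arrays averaged to 1, 22 members were called for DIFF against NoRX (9 higher, 13 lower) and 34 for DIFF against CM (11 higher, 23 lower), with the spread taken from the CM and NoRX arrays. Leaving out the first DIFF array gave 28 called (6 higher, 22 lower), and leaving out the second gave 17 (10 higher, 7 lower), each with a DIFF arm of 1 array. The shift between the DIFF arrays, in which 12939 of 14010 genes were lower on the second, moved with those counts. Counts from fits with 1 array in a group are not set against a share of all genes, so they say nothing particular about the members.

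Calls that rested on a single array were these. For CM against NoRX, leaving out DIFF replicate 1 or DIFF replicate 2, each of which adds to the spread in the fit, added Acacb, Fdps, Gpam, Lpin1 and Nr1h2 at the same differences. For DIFF against NoRX, 13 members were added without the first DIFF array, in a fit where the CM and NoRX arrays give the spread, among them Msmo1 (log2 difference -0.25), Sqle (-0.23), Fdps (-0.27), Insig1 (-0.38), Stard4 (-0.34) and Scd2 (-0.29), all lower in DIFF, and Nr1h2 (0.99). Without the second, Mvk (0.14) and Mvd (0.33) were added. Acat2 was also lost without NoRX replicate 1 or 2 (0.34 each) or CM replicate 2 (0.38), and Dhcr7 without NoRX replicate 1 (0.44) or 2 (0.42). For DIFF against CM, Dhcr7 kept its call only without the second DIFF array, at log2 differences of 0.11 to 0.41 without the others. Npc1 was lost there without CM replicate 1 or 2 (-0.29 each) or the second DIFF array (-0.15). Without the first DIFF array Acat2 (-0.42), Mvd (-0.42), Nsdhl (-0.28), Scap (-0.15) and Nr1h2 (0.72) were added, and without the second Acaca (0.19), Srebf1 (0.43), Fads1 (0.18) and Nr1h2 (-0.29).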

How the data were processed

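The deposited scanner files hold spot intensities from Agilent Feature Extraction 11.0.1.1, per the submitters' processing notes. These background-subtracted and detrended intensities were deposited on a linear scale, as the file headers show, and the series table repeats them (largest difference 0). Members and lists were chosen with earlier results of these data known.

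Control and outlier spots were removed, replicate spots of a probe were averaged, and log2 of the deposited processed signal was taken relative to the 75th percentile of the probes of each array. Probes (27235 of 55681) were named through RefSeq accessions. A probe was kept if well above background on at least 2 arrays, and the brightest probe stood for a gene. Differences were tested in limma 3.58.1 (R 4.3.3) in 1 fit of all 8 arrays with a variance trend, two-sided, with Benjamini-Hochberg adjustment over 14044 genes. The fit was checked on simulated data for CM against NoRX alone. All simulated arrays had the spread of the CM and NoRX arrays, so the check does not bear on the DIFF comparisons. Values on every array are given for the 4 members of each role group with the largest called difference in each comparison and for 7 pairs of related members, and the other pathway genes are up to 4 of a list by size of a called difference. The lists, beside the members, were SREBP processing, carbohydrate response factors, NADPH and acetyl supply, isoprenoid branches, esterification with droplets, sterol and LXR output, and marker genes.

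Alternatives were another probe summary, 2 other filters, normexp (offset 50) on the median and background signals because no mean signal was used here, quantile and median scaling, array weights, no trend, fewer groups, averaged DIFF arrays (a label gives both the same number), slide row or replicate number as a block, spots with uneven background left out, the series table, each array left out, and other arms or means. Slide rows taken alone were added after seeing the data. Same-numbered arrays deviated from their group means together at r of -0.06 to 0.17, so the numbers were not taken to pair them. For arrays, the number of samples limits the precision.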

Additional observations from a re-analysis of the deposited data

How the results depend on the processing

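Of the members called, 25 of 28 (CM against NoRX, 23 settings), 8 of 18 (DIFF against NoRX, 22 settings) and 25 of 31 (DIFF against CM, 23 settings) kept their call under every setting tried. For DIFF against NoRX, 9 members were called with array weights (3493 genes in all, against 6204) and 9 with slide row as a block (3041 genes), and the cause was not tested. Without each array in turn 26 to 33 members were called between CM and NoRX, 15 to 28 between DIFF and NoRX and 29 to 35 between DIFF and CM. These ranges are given without the share over all genes and say nothing particular about the members. Of all genes called for DIFF against NoRX 34.9% were higher, 22.4% without the first DIFF array and 52.1% without the second.

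The sterol minus fatty acid gap of log2 differences for CM against NoRX was 0.37 with only probes above background on every array, 0.30 without Gpam, Lpin1 and Pnpla3, and 0.12 by means, and 0.19 to 0.27 without each array. For DIFF against NoRX it turned to -0.15 with normexp and -0.10 by means, was 0.023 with the row block, and 0.043 to 0.11 without each array. For DIFF against CM it was -0.71 with only probes above background on every array, -0.67 with the regulators added to the arms and -0.22 by means, and -0.62 to -0.54 without each array. The changes by filter, by means and by membership follow from which genes enter and how they are weighted; for the others the cause was not tested.

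Single members turned as follows: in DIFF against NoRX, Acacb to 0.082 and Pnpla3 to 0.14 with normexp, and in DIFF against CM, Nr1h2 to -0.29 with uneven spots left out and to -0.29 without DIFF replicate 2 (0.72 without DIFF replicate 1). With the replicate block 28, 18 and 31 members were called, and the block changed no call of a member, while 7158, 5474 and 7961 genes were called in all, against 7637, 6204 and 8527. Not every array correlated best with its own number. The probes of Acacb and Pnpla3 were well above background on all CM and NoRX arrays and on 1 of the 2 DIFF arrays. Scd1 was so on 1 CM array alone and Mylip on no array. Why normexp moved Acacb and Pnpla3 was not tested.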
